A study of Mus musculus with 7 samples.

Results

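Potassium channel genes were followed in RNA from mouse brain. Every row of the deposited table whose Ensembl identifier maps to a mouse symbol beginning with Kcn was taken, which gave 99 of 48526 rows. Leaving out 4 antisense transcripts and 2 further genes left 93 genes, which were grouped by name into voltage-gated, inward rectifier, tandem-pore, calcium-activated and auxiliary subunits. The libraries came from mice of 24 months that carried the V1S and SV2 constructs, and the labels name the fluorescent protein Venus. These constructs are known as α-synuclein joined to complementary parts of Venus, which fluoresce when the α-synuclein molecules come together. Glucose is the treatment named for the 4 on libraries and Dox that for the 3 off libraries, so effects of doxycycline and of the construct state cannot be told apart. All 7 libraries share both constructs, and no library lacks them. No source used here gives the promoter that drives the constructs or the brain region. Whether the 7 libraries are 7 animals is not stated, and p-values therefore reflect only the spread between these samples, which may be technical.

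Potassium channels let potassium leave or enter cells and set the resting potential, the shape of action potentials and the rate of firing. Voltage-gated channels open on depolarization, inward rectifiers hold the membrane near rest, tandem-pore channels carry background leak, and calcium-activated channels follow calcium entry. Auxiliary subunits do not form a pore of their own and alter the gating, assembly or surface level of the pore-forming subunits.

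Expression was deposited as regularized logarithms (rlog, a log2 scale), in which deviations of weakly expressed genes are shrunken, so that differences of low genes are understated. The depth of each library is unknown. Testing was limited to genes whose mean was at least 3, which kept 82 of the 93 potassium channel genes among 17896 genes in all. The tested genes were 37 voltage-gated, 12 inward rectifier, 11 tandem-pore, 8 calcium-activated and 14 auxiliary genes. The other 11, with means between -2.19 and 2.30, were Kcna7, Kcna10, Kcnv2, Kcnj1, Kcnj15, Kcnk7, Kcnk16, Kcnk18, Kcne1, Kcne3 and Kcnmb3. Defining markers of neurons, astrocytes, oligodendrocytes and microglia were all present and none was listed at 0. In bulk tissue, fewer cells of a type and less RNA per cell cannot be told apart.

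On the first principal component of all tested genes, on replicates 2 to 4 scored 7.19 to 9.15 and the off libraries -8.64 to -3.56, and on replicate 1 scored -4.10, inside the off range. Results that rest on that library are given with and without it.

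The potassium channel genes as a whole differed little between on and off brains. The median difference, on minus off, was 0.003 over the 82 tested genes, with 42 above 0 and 40 below. Over all tested genes the median was 0.003, with 51.5% above 0 and 48.5% below. Of the 82 genes, 64 differed by less than 0.1 and 5 by 0.2 or more in either direction, against a median standard error (SE) of 0.0494. Past the threshold, 3 genes fell in on at an adjusted p below 0.05 in limma with Benjamini-Hochberg adjustment over all tested genes: the voltage-gated Kcnh3 and Kcng2 and the tandem-pore Kcnk12. None passed higher in on by limma, while 6 were higher and 12 lower at an unadjusted p under 0.05, and with array weights 5 passed higher. The 3 calls are 3.66% of the tested potassium channel genes, where 2.6% of all tested genes passed in either direction, 0.816% passed higher and 1.79% passed lower. At an unadjusted p under 0.05 the shares were 22.0% and 20.7%. The values of on and off were fully separated in 19 genes (23.2%), 7 with on above and 12 with on below, against 15.2% of all tested genes (7.13% above and 8.09% below). Without on replicate 1, 12 of the 82 potassium channel genes passed, 5 higher and 7 lower. Of all 17896 tested genes 2917 then passed in place of 466, and that library was picked out from these same values. Leaving out any of on replicates 3 and 4 or off replicates 2 and 3 left 0 potassium channel genes past the threshold. Leaving out on replicate 2 left 1 (Kcnk12), and leaving out off replicate 1 left 3 (Kcnh3, Kcnk12 and Kcnj4). Of the fits without 1 library, the rest of the 12 genes therefore passed only in that without on replicate 1. Among them were Kcna1, Kcna2, Kcnj6, Kcnma1, Kcnt1, Kcnab2 and Kcnh2.

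**Figure D1:**
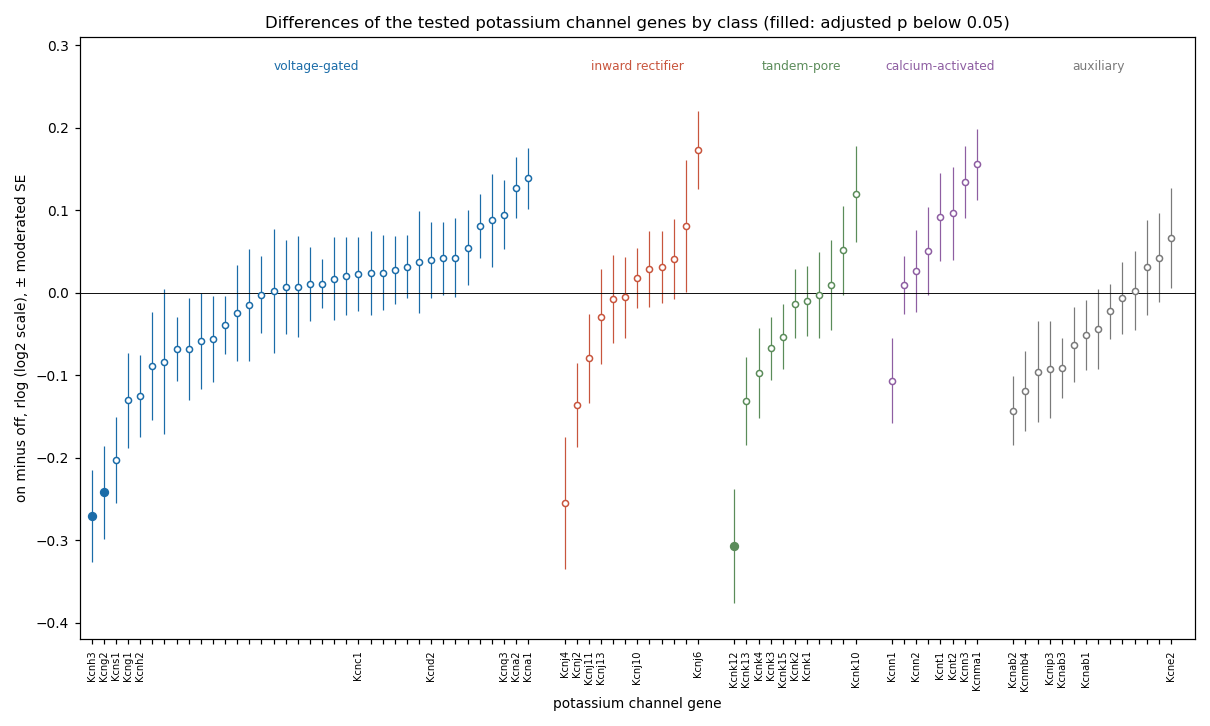
Difference between on and off libraries (vertical axis, rlog on the log2 scale) of each of the 82 tested potassium channel genes (horizontal axis, with the genes the text describes labelled), grouped by class; bars are moderated SE and filled points passed an adjusted p of 0.05. The 3 filled points, Kcnh3, Kcng2 and Kcnk12, lie between -0.31 and -0.24, and 7 of the 8 genes of the calcium-activated class lie above 0.

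The promoters of Kcnk12 and Kcnj6 are shown because these genes had the most negative and the most positive difference of the 82. Each is the 250 bases before the transcription start, from RefSeq on GRCm38.p6, 5′ to 3′ on the strand of the gene, which is minus for both. They cover chr17:87797995-87798244 and chr16:94997697-94997946, and capitals mark the GC box, GGGCGG, searched on both strands.
Kcnk12: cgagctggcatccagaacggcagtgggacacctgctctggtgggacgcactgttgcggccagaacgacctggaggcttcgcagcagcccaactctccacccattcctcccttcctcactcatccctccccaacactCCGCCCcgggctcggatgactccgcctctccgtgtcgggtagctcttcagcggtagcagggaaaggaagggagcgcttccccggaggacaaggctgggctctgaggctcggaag
Kcnj6: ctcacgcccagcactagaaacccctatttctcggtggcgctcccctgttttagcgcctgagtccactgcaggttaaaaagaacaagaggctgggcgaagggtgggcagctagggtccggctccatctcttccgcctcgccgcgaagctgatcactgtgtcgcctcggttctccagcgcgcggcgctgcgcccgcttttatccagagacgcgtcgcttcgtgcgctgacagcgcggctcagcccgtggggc
The promoters had much the same GC content, 64.8% for Kcnk12 and 64.0% for Kcnj6, although the transcripts stood at 69.4% and 48.2%. The Kcnk12 window held 16 CpG and 1 GC box, and that of Kcnj6 held 26 CpG and 0 GC boxes. RefSeq promoters were matched for 68 of the 93 genes, 59 of them tested. Of these 59, 52.5% held a GC box, against 32.7% of all 32817 promoters of that length, and the median GC content was 61.2% against 52.4%. The sets are unlike: the 59 hold 1 promoter per tested gene, and the 32817 include further starts of a gene and genes not tested here. Spearman's rho between promoter GC content and the difference was -0.112 over the 59 genes.

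Voltage-gated subunits gave 2 of the 3 calls. Kcnh3 encodes a channel of the ether-à-go-go-like family that is found mainly in forebrain neurons, and it lies at chr15:99224861-99242817 on the plus strand of GRCm38. Its rlog values were 11.29, 11.21, 11.24 and 11.23 in on replicates 1 to 4 and 11.37, 11.67 and 11.51 in off replicates 1 to 3. All on libraries lay below all off libraries, and the off libraries spread more widely, with off replicate 2 highest. The difference was -0.27 ± 0.06 (SE, limma adjusted p = 0.0261), from 11.52 ± 0.15 (SD, n = 3) in off to 11.25 ± 0.03 (SD, n = 4) in on. Without off replicate 2 it was -0.19 ± 0.05 (SE, limma adjusted p = 0.144).

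Kcng2 encodes an electrically silent subunit that forms channels only together with Kv2 subunits. It stood at 7.16, 7.03, 7.13 and 7.15 in on replicates 1 to 4 and at 7.30, 7.40 and 7.38 in off replicates 1 to 3. Every on library was lower than every off library, and on replicate 2 was the lowest. The difference was -0.24 ± 0.06 (SE, limma adjusted p = 0.0393), and it passed without on replicate 1 and in no other fit without 1 library. Kcns1, another silent partner of Kv2, had on values of 8.42 to 8.53 and off values of 8.61 to 8.71. The groups did not overlap and the difference of -0.20 ± 0.05 (SE) missed the threshold (limma adjusted p = 0.0547). Kcns1 passed without on replicate 1 at -0.21 ± 0.05 (SE, limma adjusted p = 0.0174), with array weights (0.0252), with a robust prior (0.0453), with no intensity trend (0.0482) and with a minimum mean of 5 (0.0486). After correction for GC content and transcript length, described further on, it stood at -0.12 (limma adjusted p = 0.2). Kcng1, also a silent subunit, differed by -0.13 ± 0.06 (SE, limma adjusted p = 0.218). Over the 4 tested Kcng genes the differences ran from -0.24 to 0.09, with 3 below 0 and 1 above. Over the 3 tested Kcns genes they ran from -0.20 to -0.02.

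Kcna1 and Kcna2, Shaker-related Kv1 subunits of the axon, had the largest positive differences of this class. Over the 6 tested Kcna genes the differences ran from -0.09 to 0.14, with 4 above 0 and 2 below. Kcna1 stood at 12.03, 12.11, 12.06 and 12.08 in on replicates 1 to 4 and at 11.93, 11.89 and 11.97 in off replicates 1 to 3. The groups did not overlap, and the difference of 0.14 ± 0.04 (SE) missed the threshold (limma adjusted p = 0.0609). Kcna2, which joins Kcna1 in channels beside the nodes of Ranvier, stood at 14.03, 14.09, 14.07 and 14.01 in on and at 13.92, 13.91 and 13.93 in off. Again no on library reached down to the off libraries, and the difference of 0.13 ± 0.04 (SE) did not pass (limma adjusted p = 0.0795). Without on replicate 1 both passed, Kcna1 at 0.15 ± 0.04 (SE, limma adjusted p = 0.0115) and Kcna2 at 0.14 ± 0.04 (SE, limma adjusted p = 0.0242). Neither passed when any other single library was left out. After the same correction Kcna2 stood at 0.01 (limma adjusted p = 0.91), and at -0.003 when on replicate 1 was also left out, whereas Kcna1 stood at 0.14. Kcna1 and Kcna6 lie 61945 bases apart on chromosome 6, and Kcna6 differed by 0.04 ± 0.04 (SE). An antisense gene covers 39.6% of the Kcna6 exons, and no source used here says whether counting used strand.

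Smaller differences were measured in Kcnq3, Kcnc1 and Kcnd2, and none of these passed in limma. Kcnq3, which contributes to the M-current that limits repetitive firing, differed by 0.09 ± 0.04 (SE, limma adjusted p = 0.219). Kcnc1, a Kv3 subunit of fast-spiking cells, differed by 0.02 ± 0.04 (SE). Kcnd2, the Kv4 subunit of the dendritic A-type current, differed by 0.04 ± 0.05 (SE). On and off libraries overlapped in Kcnc1 and Kcnd2, and those of Kcnq3 did not, with on values from 12.77 to 12.94 and off values from 12.73 to 12.76. Over the 37 tested voltage-gated genes 2 were called lower, against 1.79% of all tested genes. The median difference of the class was 0.01, with 22 above 0 and 15 below. After correction for GC and transcript length the median was -0.02 with 13 above 0, and Kcnc1 and Kcnq3 changed sign. Kcnh2, the ERG channel, differed by -0.12 ± 0.05 (SE, limma adjusted p = 0.175) and passed without on replicate 1 at -0.16 ± 0.04 (SE, limma adjusted p = 0.0232).

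**Figure D2:**
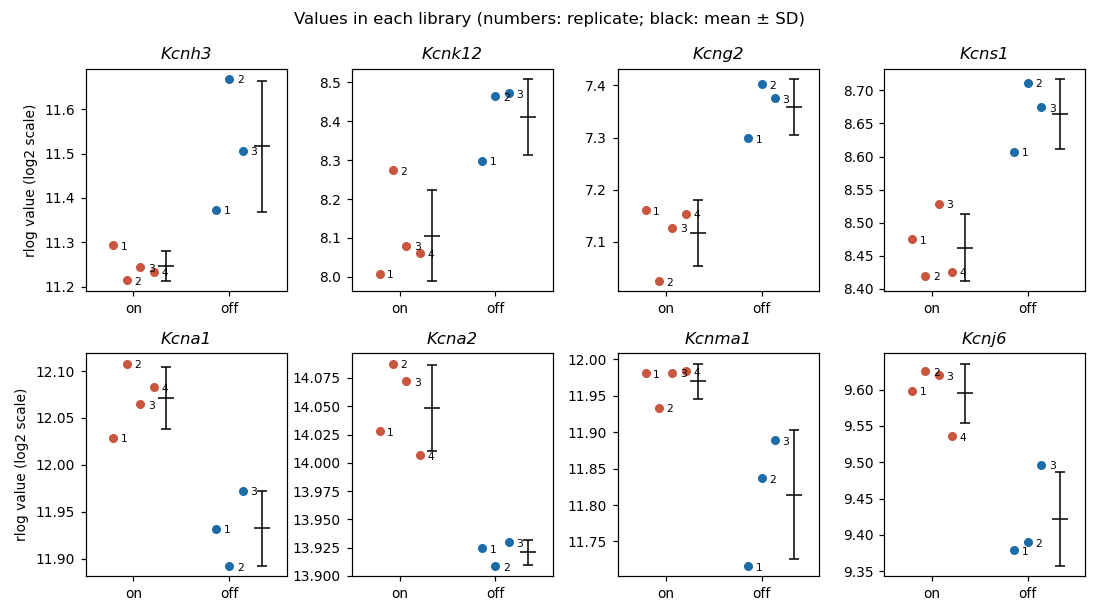
Rlog values (log2 scale, vertical axes that do not start at 0 and differ between panels) of 8 genes in each library, on in red and off in blue, with replicate numbers beside the points and the mean ± SD of each group in black. Kcnh3, Kcnk12, Kcng2 and Kcns1 are lower in all 4 on libraries and Kcna1, Kcna2, Kcnma1 and Kcnj6 are higher in all 4, and 3 of the 8 genes passed the threshold.

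Tandem-pore genes gave the remaining call. Kcnk12 encodes a subunit of the THIK branch, and it lies at chr17:87745801-87797994 on the minus strand. Its values were 8.01, 8.27, 8.08 and 8.06 in on replicates 1 to 4 and 8.30, 8.46 and 8.47 in off replicates 1 to 3. The groups did not overlap, and on replicate 2 and off replicate 1 were the nearest libraries. The difference was -0.31 ± 0.07 (SE, limma adjusted p = 0.0352), from 8.41 ± 0.10 (SD, n = 3) in off to 8.11 ± 0.12 (SD, n = 4) in on, as deposited the most negative of the 82 genes. After correction for GC and length it was -0.09 (limma adjusted p = 0.428), and Kcnj2 was then lower, at -0.21. It missed the threshold without on replicate 3 (limma adjusted p = 0.12), on replicate 4 (0.108), off replicate 2 (0.187) or off replicate 3 (0.138). Kcnk13, its close relative and the leak channel of microglia, had on values of 8.44 to 8.61 and off values near 8.66, and the difference of -0.13 ± 0.05 (SE) did not pass (limma adjusted p = 0.185). Microglial marker genes were at means of 9.86 to 10.05 in on and 9.94 to 10.09 in off, with 5 of 6 differences below 0 and 0 past the limma threshold (1 at an unadjusted p under 0.05), and their part in the value of Kcnk13 was not tested.

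On libraries lay below off libraries in 5 of the 11 tested tandem-pore genes, against 8.09% of all tested genes. They lay above in 1, against 7.13%. Those below were Kcnk12, Kcnk13, Kcnk4 (-0.10 ± 0.05, SE), the acid-sensitive TASK gene Kcnk3 (-0.07 ± 0.04, SE) and Kcnk15 (-0.05 ± 0.04, SE), and Kcnk10 (0.12 ± 0.06, SE) lay above. Only Kcnk12 of these passed by limma. At an unadjusted limma p under 0.05, 2 of the 11 were lower and 0 higher, against 10.6% and 10% of all tested genes. After correction for GC and length Kcnk13 stood at -0.10, Kcnk4 at -0.07, Kcnk3 at -0.03, Kcnk15 at -0.02 and Kcnk10 at 0.04. Kcnk1 (TWIK-1) and Kcnk2 (TREK-1), the most abundant of the class per length of transcript, each differed by -0.01 ± 0.04 (SE), and their libraries overlapped.

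Inward rectifiers held large differences of both signs and a median of 0.01, with 0 past the threshold in limma. At an unadjusted limma p under 0.05 there were 3, 1 higher and 2 lower, against 10% and 10.6% of all tested genes. Kcnj6, a G-protein-gated GIRK subunit, had the largest positive difference of the 82 genes. It stood at 9.60, 9.63, 9.62 and 9.54 in on replicates 1 to 4 and at 9.38, 9.39 and 9.50 in off replicates 1 to 3, so that the groups did not overlap. The difference was 0.17 ± 0.05 (SE, limma adjusted p = 0.0665), and 0.17 ± 0.05 (SE, limma adjusted p = 0.0263) without on replicate 1. Kcnj4, a strong inward rectifier of forebrain neurons, stood at 11.47, 11.20, 11.23 and 11.33 in on and at 11.36, 11.78 and 11.55 in off. On replicate 1 lay above off replicate 1, and the difference of -0.25 ± 0.08 (SE) did not pass (limma adjusted p = 0.101). It passed without on replicate 1 (-0.31 ± 0.07, SE, limma adjusted p = 0.00932) and without off replicate 1 (-0.35 ± 0.08, SE, limma adjusted p = 0.0407), and was -0.15 (limma adjusted p = 0.387) without off replicate 2.

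Kcnj10, the channel with which astrocytes take up potassium, stood at 13.64, 13.57, 13.63 and 13.56 in on and at 13.61, 13.56 and 13.58 in off. The groups overlapped, and the difference was 0.02 ± 0.04 (SE, limma adjusted p = 0.824). Of 6 astrocyte markers 3 differed above 0, with 0 past the limma threshold (0 at an unadjusted p under 0.05). Kcnj11, the pore of the ATP-sensitive channel, differed by -0.08 ± 0.05 (SE). Kcnj13, an epithelial channel of the choroid plexus, differed by -0.03 ± 0.06 (SE) and is uncertain, since 49.1% of its exon bases lie opposite the more abundant Gigyf2. Kcne2, an auxiliary subunit of the same epithelium, differed by 0.07 ± 0.06 (SE). Choroid plexus markers had means of 9.50 to 9.71 in on and 9.54 to 9.62 in off, with 3 of 6 differences above 0 and 0 past the limma threshold (0 at an unadjusted p under 0.05).

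The calcium-activated class was grouped by name, and it also holds the sodium-activated Kcnt1 and Kcnt2 and their relative Kcnu1. It had the highest class median, 0.07, with 7 of 8 differences above 0. In limma 0 passed the threshold and 2 were higher at an unadjusted p under 0.05, against 10% of all tested genes. The class is small, and after that correction the median was 0.03 with 6 of 8 above 0. Kcnma1, the large-conductance BK channel, stood at 11.98, 11.93, 11.98 and 11.98 in on replicates 1 to 4 and at 11.72, 11.84 and 11.89 in off replicates 1 to 3. All on libraries were higher, and the difference was 0.16 ± 0.04 (SE, limma adjusted p = 0.0662). Kcnn3, a small-conductance SK channel of the afterhyperpolarization, was also higher in every on library (10.32 to 10.37, against 10.15 to 10.29), with a difference of 0.13 ± 0.04 (SE, limma adjusted p = 0.105). Of the other SK genes, Kcnn2 differed by 0.03 ± 0.05 (SE) and Kcnn1 by -0.11 ± 0.05 (SE, limma adjusted p = 0.258), and the differences between these genes were not tested. Kcnt1 and Kcnt2, which respond to sodium, differed by 0.09 ± 0.05 (SE) and 0.10 ± 0.06 (SE), with on replicate 1 the lowest on library in both. Without on replicate 1, Kcnma1 (0.15 ± 0.04, SE, limma adjusted p = 0.0259) and Kcnt1 (0.14 ± 0.04, SE, limma adjusted p = 0.0259) passed.

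Auxiliary subunits had the lowest class median, -0.05, with 10 of 14 differences below 0 and 11 of 14 after the same correction. None passed the limma threshold, and 3 were lower and 0 higher at an unadjusted p under 0.05, against 10.6% and 10% of all tested genes. Those 3, the Kv1 β subunits Kcnab2 and Kcnab3 and the neuronal BK subunit Kcnmb4, were lower in every on library. Kcnab2 stood at 13.70, 13.60, 13.67 and 13.59 in on and at 13.72, 13.82 and 13.81 in off, with a difference of -0.14 ± 0.04 (SE, limma adjusted p = 0.0839). It passed without on replicate 1 at -0.16 ± 0.04 (SE, limma adjusted p = 0.0143). Kcnab3 differed by -0.09 ± 0.04 (SE), Kcnmb4 by -0.12 ± 0.05 (SE) and Kcnab1, whose libraries overlapped, by -0.05 ± 0.04 (SE). After the correction Kcnab3 stood at -0.02, Kcnmb4 at -0.09, Kcnab2 at -0.10 and Kcnab1 at -0.07. Kcnip3, which binds Kv4 channels and is also known as the transcriptional repressor DREAM, differed by -0.09 ± 0.06 (SE, limma adjusted p = 0.4).

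**Figure D3:**
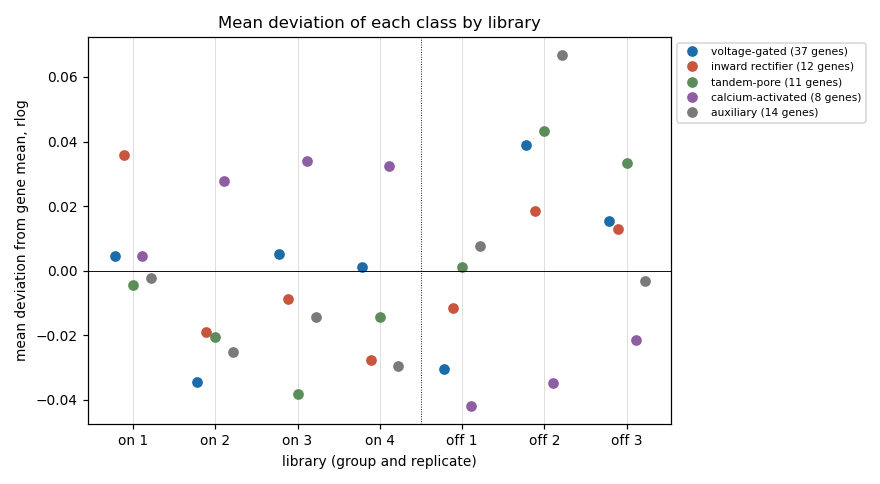
Mean deviation of the tested genes of each class from their own mean (vertical axis, rlog) in each of the 7 libraries (horizontal axis), with the number of genes in the key. The calcium-activated class lies above 0 in all 4 on libraries (0.004 to 0.034) and below 0 in all 3 off libraries, whereas voltage-gated genes are low in on replicate 2 (-0.034) and off replicate 1 (-0.030).

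Across libraries, the potassium channel genes were not all shifted together. Off replicate 2 held the highest value of 26 of the 82 genes and on replicate 2 the lowest of 22. The same counts were not made over all tested genes. Auxiliary genes had a mean deviation of 0.067 in off replicate 2 and of -0.003 and 0.008 in the other off libraries. The inward rectifiers stood at 0.036 in on replicate 1 and at -0.028 to -0.009 in the other on libraries. Striatal marker genes also peaked in off replicate 2. Their off means ran from 10.74 to 10.98 and their on means from 10.62 to 10.74. Of these markers 6 of 6 differed below 0, with 0 past the limma threshold. At an unadjusted limma p under 0.05, 3 were lower, against 10.6% of all tested genes. The correction for GC and length left 6 of 6 below 0 (median -0.09), with 0 past the limma threshold and 3 at an unadjusted p under 0.05. GABAergic markers (Pvalb, Gad1, Gad2 and Slc32a1) were below 0 in 4 of 4 genes. Of these 1 passed, where 1.79% of all tested genes passed lower. It was Slc32a1, at -0.23 ± 0.05 (SE, limma adjusted p = 0.0282). After correction for GC and length Slc32a1 stood at -0.11 (limma adjusted p = 0.123), Gad1 at -0.11, Gad2 at -0.11 and Pvalb at 0.04. Of the 4, 3 were then below 0, with 0 past the limma threshold and 3 at an unadjusted p under 0.05. Cerebellar markers were above 0 in 4 of 5 with 0 past the limma threshold (1 at an unadjusted p under 0.05). Endothelial markers deviated by -0.25 in on replicate 1 and -0.22 in off replicate 2, against 0.11 to 0.14 in the other on libraries, with 3 of 4 differences above 0. Mural cell markers deviated by -0.17 and -0.15 in the same libraries, with 4 of 4 above 0, and in both lists 0 passed in limma (1 endothelial and 0 mural genes at an unadjusted p under 0.05). The part of tissue makeup in Kcnh3, Kcnj4 and the other genes was not tested.

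Transcript length and GC content moved with the differences. The 3 genes that fell had longest transcripts of 1972 to 3698 bases and GC contents of 61.2% to 69.4%, against medians of 3920 bases and 51.8% for the 82 genes. Kcna2 (11582 bases) and Kcnma1 (12094 bases) are among the long ones. Across the 82 genes, all measured in 1 set of libraries and so not independent, Spearman's rho of the difference was 0.474 with length and -0.414 with GC, and over all tested genes it was 0.391 and -0.376. Of the 41 longer potassium channel genes 27 were above 0, and of the 41 shorter ones 15. Among the 40 genes of higher GC content, on libraries lay below off libraries in 11 and above in 0, and among the other 42 in 1 and 7. Over all tested genes, which were not split by GC content in this way, the shares were 8.09% below and 7.13% above.

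When each library's trend with both properties was removed, 119 of 17831 genes (0.667%) and 1 of the 82 potassium channel genes passed. At an unadjusted p under 0.05 the shares were 16.7% and 18.3%, and 34 of the 82 genes lay above 0, against 48.6% of all tested genes. That gene was Kcnj2, the Kir2 channel of classical inward rectification, at -0.21 ± 0.04 (SE, limma adjusted p = 0.0398), named after its values were seen. As deposited it stood at 9.46, 9.61, 9.48 and 9.50 in on and at 9.72, 9.59 and 9.63 in off, and on replicate 2 lay above off replicate 2. Its uncorrected difference was -0.14 ± 0.05 (SE, limma adjusted p = 0.155), and that of Kcnj16, 38196 bases away on chromosome 11, was 0.03. The differences of Kcnh3 (-0.18 ± 0.04, SE, limma adjusted p = 0.0686) and Kcng2 (-0.21 ± 0.05, SE, limma adjusted p = 0.0973) were smaller and missed the threshold. That of Kcnk12 shrank to -0.09 ± 0.05 (SE, limma adjusted p = 0.428). Kcna1 kept 0.14 ± 0.03 (SE, limma adjusted p = 0.0781) and Kcnj6 0.15 ± 0.04 (SE, limma adjusted p = 0.125), while Kcnma1 stood at 0.03, Kcna2 at 0.01 and Kcnn3 at 0.04. Kcns1 stood at -0.12 and Kcnab2 at -0.10. Spearman's rho with length was then -0.0536.

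**Figure D4:**
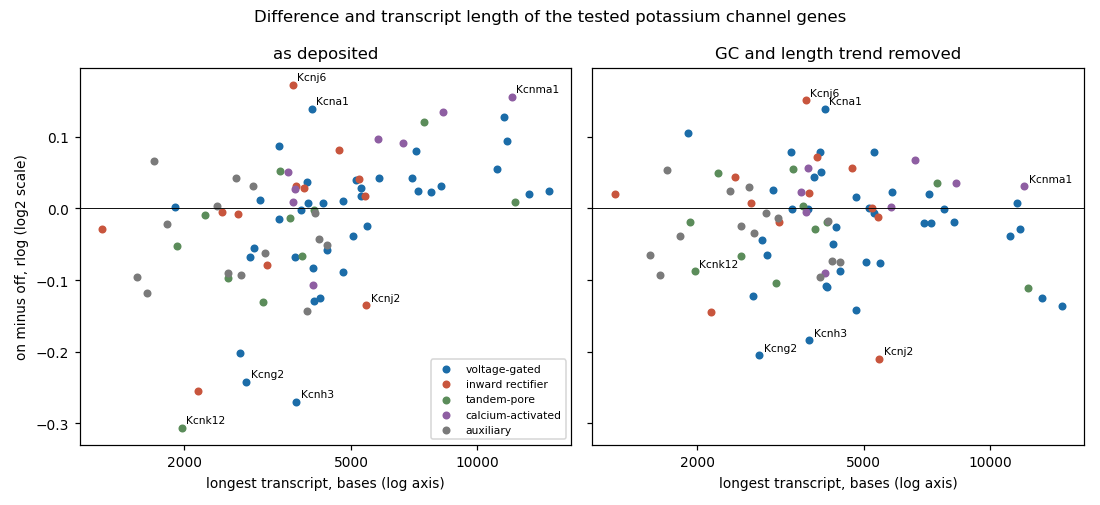
Difference between on and off (vertical axis, rlog on the log2 scale) against the longest transcript (horizontal log axis, bases) for the 82 tested potassium channel genes, as deposited (left) and with the trend of each library with GC and length removed (right). On the left short transcripts lie lower and long ones higher (rho 0.474); on the right this slope is gone (rho -0.0536) and Kcnk12 lies at -0.09.

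Levels were compared between genes per kilobase of the longest transcript, as the mean rlog value minus the log2 of that length. Kcnab2 was highest at 11.7, followed by Kcnj10 at 11.2, and of the other genes reported here Kcnk1 was highest at 10.8. Kcnc1 (10.5), Kcna2 (10.5), Kcnj4 (10.3), Kcnip3 (10.3) and Kcnt1 (10.3) came next. Kcnc1 and Kcna2, and Kcnj4, Kcnip3 and Kcnt1 were nearer to their neighbour in this order than the SD between libraries of the more variable gene. With the union of all exons as the length, Kcnip3 moved from place 9 to place 14 and Kcnt1 from place 10 to place 15, so these places rest on the transcript model. Class medians of this level were 9.14 for auxiliary, 8.62 for voltage-gated, 8.36 for inward rectifier, 7.28 for calcium-activated and 6.75 for tandem-pore genes. The genes that fell were not among the most abundant, with levels per kilobase of 9.48 for Kcnh3, 7.26 for Kcnk12 and 5.73 for Kcng2.

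**Figure D5:**
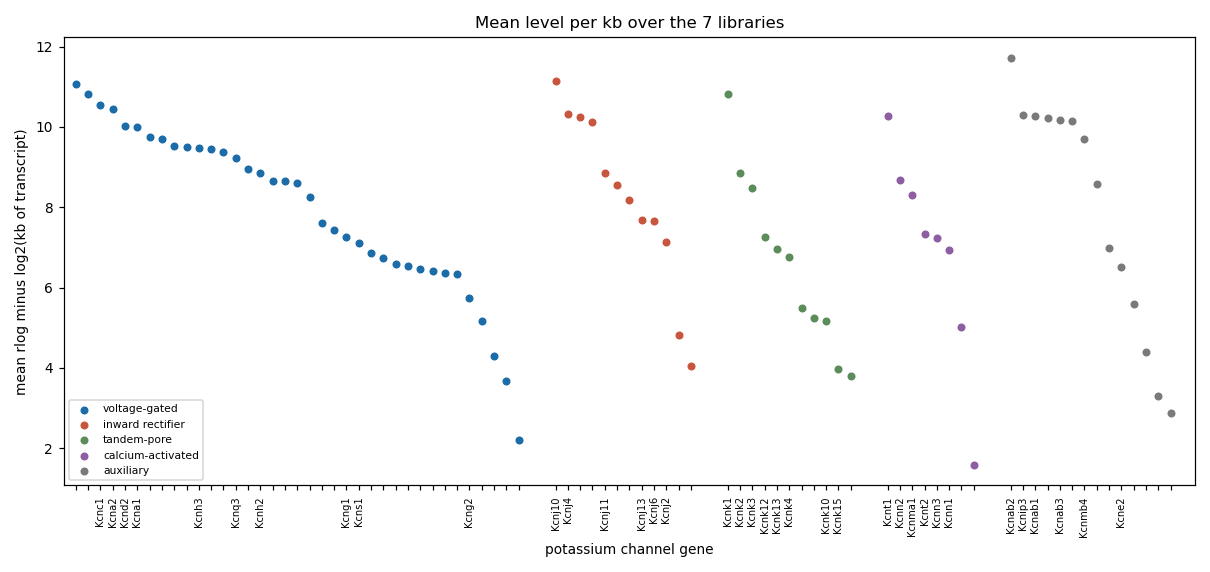
Mean level over the 7 libraries (vertical axis, rlog minus log2 of transcript length in kilobases, a log2 scale) of the 82 tested potassium channel genes (horizontal axis, with the genes the text describes labelled), ordered within each class. The highest member of each class reaches 10.3 to 11.7 and the lowest lies between 1.58 and 4.04.

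Some potassium channel genes lie side by side and still differed in level. Kcna3, Kcna2 and Kcna10 are neighbours on chromosome 3, with mean values of 7.79, 13.99 and 1.63. The astrocyte gene Kcnj10 and the GIRK gene Kcnj9 lie 11892 bases apart on chromosome 1, with means of 13.59 and 12.19 and differences of 0.02 and 0.03. Kcna5 on chromosome 6 had a mean of 7.89 beside Kcna1 at 12.01.

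Partners of these channels that carry no Kcn symbol were also examined. Of 18 partner genes 16 were tested, with a median difference of 0.03, 11 above 0 and 5 below. After correction for GC and length the median was -0.04, with 6 above 0 and 10 below. As deposited, 3 were higher and 2 lower at an unadjusted limma p under 0.05, against 10% and 10.6% of all tested genes. Past the threshold, 1 was higher and 0 lower, against 0.816% and 1.79%. The called gene was Ank3, whose product ankyrin-G anchors Kv7 channels at the axon initial segment, at 0.17 ± 0.04 (SE, limma adjusted p = 0.0377), from 14.20 ± 0.05 (SD, n = 3) to 14.37 ± 0.02 (SD, n = 4). After removal of the trend with GC content and length it was 0.07 (limma adjusted p = 0.211), and of the 7 fits without 1 library it passed only in that without on replicate 1 (limma adjusted p = 0.00689). Adam22 (0.13 ± 0.04, SE) and Cntn2 (0.11 ± 0.04, SE), both linked to the placing of Kv1 channels along axons, did not pass (limma adjusted p = 0.108 and 0.171). With the trend removed they stood at 0.03 and 0.08.

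HCN channels open on hyperpolarization and pass both potassium and sodium. Of the 4 HCN genes 1 passed, lower in on, against 1.79% of all tested genes. It was Hcn2, at -0.20 ± 0.04 (SE, limma adjusted p = 0.0345), from 12.53 ± 0.08 (SD, n = 3) to 12.34 ± 0.05 (SD, n = 4), and -0.04 (limma adjusted p = 0.616) after the same removal. It missed the threshold without on replicates 3 or 4 or off replicates 2 or 3 (limma adjusted p = 0.0988, 0.124, 0.161 and 0.129). Hcn3 differed by -0.12 ± 0.05 (SE, limma adjusted p = 0.215). Of 11 potassium pump and cotransporter genes none passed in limma, with a median of 0.04. At an unadjusted limma p under 0.05 there was 1, against 20.7% of all tested genes. The glial pump subunit Atp1b2 was 0.11 ± 0.04 (SE, limma adjusted p = 0.121) above off, with no overlap between the groups, and the cotransporter Slc12a7 differed by 0.12 ± 0.06 (SE, limma adjusted p = 0.303).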

How the data were processed

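Per the labels, RNA from brain was prepared with a column kit and DNase, and libraries with the Illumina TruSeq Stranded mRNA kit. Per the submitters' processing notes, the authors used DESeq2 1.16.1, Subread 1.5.3, STAR 2.5.2, BWA 0.7.14-r1136, cutadapt 1.9.1 and build GRCm38, with no role or order given. The deposited table holds rlog (log2) values, 1 column per library, and 13834 of 48526 genes are listed at 0 in every library. No source used here names the annotation release or strand setting. Symbols matched 48058 identifiers. Positions, longest transcripts and GC content came from GENCODE on GRCm38.

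Genes with a mean of 3 or more were compared in limma 3.58.1 (R 4.3.3; group term, intensity trend, two-sided, Benjamini-Hochberg over 17896 genes, threshold 0.05). A GC and length trend, smoothed by mgcv 1.9.3 within 3 classes of mean value, was removed per library. The methods were tested on simulated data. Alternatives were other filters, scalings, variance models, a looser threshold of 0.1, a replicate block and leaving out single libraries. Named genes were those past the threshold, the 10 of smallest p, the 5 largest differences of each sign, the 2 highest per kilobase of each class, textbook members fixed by name, and, of the lists of partners, HCN genes and pumps, those past the threshold and the 3 of smallest p. A further 13 genes (Kcnj2, Kcnh2, Kcnab1, Kcnab3, Kcnk13, Kcnmb4, Kcng1, Kcnk10, Kcnn1, Kcnt2, Kcnk3, Kcnk4 and Kcnk15) were named after their values were seen. Some genes that this rule names are not reported here. Members and lists were chosen with earlier results of these data known. No 2 libraries held identical values, and 0 columns were left unused. Kcnj9, Kcnj16, Kcna3, Kcna5, Kcna6 and Kcna10 are given for their position only.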

Additional observations from a re-analysis of the deposited data

Results flagged for a closer look

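Dixon's test was run on the 4 on libraries for 49 values, and in 4 of them a single library stood apart. About 1 in 20 groups, or 2.4 of the 49, would do so by chance. On replicate 2 was the far library in 3 of them. It was lowest in Kcnma1, at 11.93 against 11.98 in the others, and in Kcng1, at 9.091 against 9.266 to 9.301. It was also lowest in the mean deviation of the voltage-gated genes, at -0.0344 against 0.0011 to 0.0051. On replicate 4 was lowest in Atp1b2, at 14.47 against 14.53.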

How the results depend on the processing

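The median difference of the 82 genes moved by less than the spread between libraries in every alternative run. Counts of calls did not hold: 466 genes in all and 3 potassium channel genes as reported became 1182 and 9 at a threshold of 0.1, 7 and 0 with no filter, 2215 and 11 with array weights, and 119 and 1 with the GC and length trend removed (1795 and 7 also without on replicate 1). Without the intensity trend 237 genes passed in all. Leaving out 1 library gave 43 to 2917 genes in all and 0 to 12 potassium channel genes. Exon union length, chosen after seeing the data, gave 139 and 1, the 1 being Kcnh3 (limma adjusted p = 0.0489) in place of Kcnj2. Fits without 1 library hold fewer samples, and the cause of the other shifts was not tested.

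With the replicate number as a block 30 genes and 0 potassium channel genes passed, and 2 and 0 with the trend removed as well. Deviations of same-numbered libraries correlated at -0.228, -0.1 and 0.0176, and those of differently numbered libraries at -0.195 to 0.297. No source used here says what the numbers mean, and these correlations cannot decide whether equal numbers mark a pair.

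Of the 43 named genes, the following differences changed sign, and the cause was not tested. With the GC and length trend removed these were Kcnc1 (-0.00127), Kcnj10 (-0.0117), Kcnj13 (0.0201), Kcnk1 (0.0498), Kcnk2 (0.00373) and Kcnq3 (-0.0291). Also without on replicate 1 they were Kcna2 (-0.00299), Kcnj10 (-0.0295), Kcnj13 (0.0188), Kcnk1 (0.0758) and Kcnq3 (-0.0381). With the trend removed and the block they were Kcnd2 (-0.0241), Kcnj10 (-0.000685), Kcnj13 (0.0387), Kcnk1 (0.0443), Kcnk10 (-0.00206), Kcnq3 (-0.0014) and Kcnt2 (-0.0086). With exon union length they were Kcnj13 (0.0295), Kcnk1 (0.07) and Kcnq3 (-0.000994). Leaving out 1 library gave -0.0378 to 0.0417 for Kcnk1, -0.00658 to 0.0707 for Kcnn2, -0.00226 to 0.0541 for Kcnc1, -0.06 to 0.00237 for Kcnj13 and -0.0329 to 0.0142 for Kcnk2. The sign turned without on replicate 1 or off replicate 2 (Kcnk1), on replicate 2 or off replicate 3 (Kcnn2), on replicate 3 (Kcnc1) and off replicate 2 (Kcnj13 and Kcnk2). Library depth is unknown, so no limit from counting error can be given.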
